A study of Mus musculus with 6 samples.

Results

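Transcripts of 10 genes of the NRF2 pathway and of glutathione-linked antioxidant defence were followed in cardiac macrophages from libraries labelled Tet2 KO and Tet2 WT: Nfe2l2, Keap1, Sqstm1, Slc7a11, Gclc, Gclm, Txnrd1, Srxn1, Prdx1 and Nqo1. They were chosen by gene symbol, and all 10 were found among the 35865 genes to which the deposited transcripts were summed. The data are 6 RNA-seq libraries of macrophages sorted from digested hearts of mice of the C57BL/6J strain. In 3 libraries the cells derived from Tet2 KO (Tet2-/-) donor haematopoietic progenitors and in 3 from Tet2 WT (Tet2+/+) donor progenitors. The study concerns clonal haematopoiesis in mice that received donor cells without conditioning, so the recipients kept their own blood cells. The age of the mice, the sort gate, the deleted part of Tet2 and whether a library pools several hearts are not given in the sources used here. Whether each library is a different animal is not stated; the p-values reflect only how far these libraries differ, which may be technical.

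NRF2, the product of Nfe2l2, is the transcription factor that switches on many antioxidant and detoxifying genes. In resting cells KEAP1 holds NRF2 and hands it to a CUL3 ubiquitin ligase for destruction, and electrophiles or oxidants acting on KEAP1 let NRF2 accumulate, pair with small MAF proteins and bind antioxidant response elements. NRF2 is controlled mainly at the level of the protein, so its mRNA is a poor guide to its activity and its target mRNAs are the usual readout. In macrophages the pathway is known for restraining oxidative damage and the inflammatory gene programme.

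The start regions of the genes were searched for the core letters of the antioxidant response element, the kind of site that NRF2 binds. A match in letters does not show that NRF2 binds there, and binding was not measured. RefSeq windows (GRCm38.p6) that run from 250 bases before to 50 bases after a transcription start were matched for 9 of the 10 genes, in 11 windows; Gclc had none. The letters TGACNNNGC or TGAGNNNGC, read on both strands, occurred in 6 of the 11 windows, which belong to 6 genes, against 27.8% of all 32851 windows. TGACNNNGC alone was in 12.4% of all windows and TGAGNNNGC alone in 17.6%. GC content, which affects how often such letters occur, had a median of 60.7% in the member windows and 52.7% in all windows. The upstream stretches that hold these letters are shown on the strand of each gene, 5′ to 3′, with the matched letters in capitals (as their reverse complement where the match is on the opposite strand; GRCm38.p6). They are chr2:152105336-152105517 for Srxn1 (plus strand), chr4:116685436-116685504 for Prdx1 (plus), chr3:122245393-122245461 for Gclm (plus), chr10:82859084-82859152 for Txnrd1 (plus), chr2:75704865-75704913 for Nfe2l2 (minus) and chr3:50443672-50443740 for Slc7a11 (minus).
Srxn1: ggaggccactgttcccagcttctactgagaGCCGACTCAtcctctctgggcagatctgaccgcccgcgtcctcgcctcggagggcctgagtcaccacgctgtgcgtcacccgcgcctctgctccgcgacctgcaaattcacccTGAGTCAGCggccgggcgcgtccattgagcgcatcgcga
Prdx1: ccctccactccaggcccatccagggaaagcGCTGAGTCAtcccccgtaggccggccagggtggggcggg
Gclm: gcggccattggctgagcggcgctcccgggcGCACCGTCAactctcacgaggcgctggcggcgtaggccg
Txnrd1: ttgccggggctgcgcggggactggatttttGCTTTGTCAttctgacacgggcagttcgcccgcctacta
Nfe2l2: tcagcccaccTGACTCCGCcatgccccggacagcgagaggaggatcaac
Slc7a11: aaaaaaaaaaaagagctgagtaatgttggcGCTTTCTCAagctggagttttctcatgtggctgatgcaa
Srxn1 had most matches, 3, with 1 of them after the start and not shown. Its match TGAGTCAGC, 45 bases before the start, contains TGAGTCA, the letters bound by AP-1 factors. Prdx1 had 2 matches, and the one before the start, TGACTCAGC on the opposite strand, overlaps TGAGTCA as well. TGAGTCA on either strand was in 5.20% of all windows and in 2 of the 11 member windows. No match was found within these windows for Nqo1, Keap1 and Sqstm1, which says only that the letters are not in these 300 bases.

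None of the 10 genes differed between Tet2 KO and Tet2 WT at an adjusted p under 0.05 in edgeR's quasi-likelihood test, while 16.2% of the 16386 tested genes did. All 10 passed the filter on low counts. DESeq2 called 1 of them, Nfe2l2, and limma voom called 0, while these tools called 21.1% and 17.4% of all tested genes. At an unadjusted edgeR p under 0.05 there were 2, Nfe2l2 (higher in Tet2 KO) and Srxn1 (lower), and 28.9% of all tested genes passed that limit. The estimates pointed up for 5 genes and down for 5, and their median was 0.01 on the log2 scale, beside 0.00 over all tested genes. The median size of the change, whatever its sign, was 0.19 for the 10 genes and 0.33 for all tested genes. The 3 libraries of one genotype lay clear of the 3 of the other for 4 of the 10 genes, Nfe2l2 and Keap1 (Tet2 KO higher) and Gclm and Srxn1 (Tet2 KO lower); that happened for 34.5% of all tested genes. For 6 genes (Keap1, Sqstm1, Gclc, Gclm, Txnrd1 and Prdx1) the unadjusted 95% interval of the fold change lay inside 1.5-fold in either direction. For Nfe2l2, Srxn1, Slc7a11 and Nqo1 it did not.

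**Figure D1:**
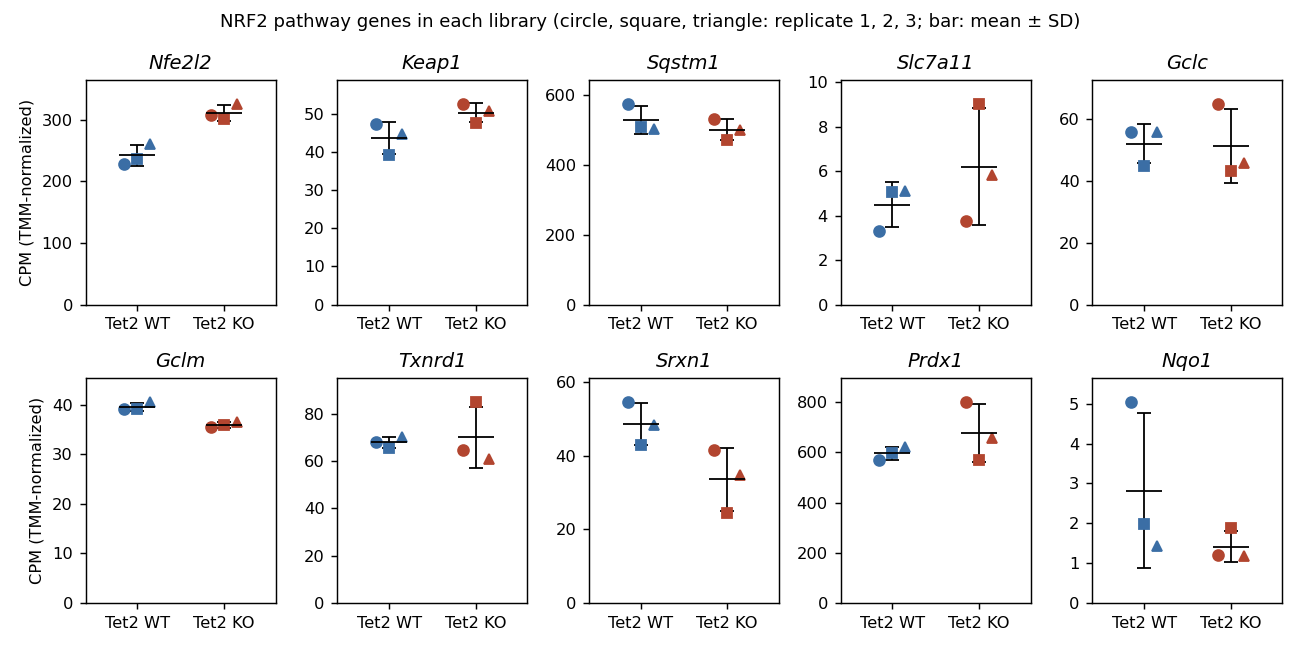
CPM (estimated counts scaled to library size with TMM, linear axis from 0) of the 10 genes in the 3 Tet2 WT and 3 Tet2 KO libraries, with replicates 1, 2 and 3 as circle, square and triangle and the mean ± SD as bars. The genotypes do not overlap for Nfe2l2, Keap1, Gclm and Srxn1, and Nqo1 shows 1 high Tet2 WT library at 5.04 CPM.

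The genes were present at widely different levels. In TPM, a measure scaled by transcript length and library that allows genes to be compared, Prdx1 averaged 808 over the 6 libraries, Sqstm1 463 and Nfe2l2 170, and the ranges of these 3 did not touch each other. Gclm and Txnrd1 followed at 39.9 and 39.5, and these 2 overlapped. Keap1 (26.8), Srxn1 (23.7) and Gclc (23.7) overlapped too and lay below Txnrd1 in each library. Slc7a11 and Nqo1 were lowest, at 2.23 and 2.08 TPM, and overlapped. Prdx1 stood at the 99.2th percentile of the mean TPM of all tested genes, Nfe2l2 at the 95.5th and Nqo1 at the 28.7th.

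The regulators came closest to a difference through Nfe2l2 itself. Nfe2l2 (ENSMUSG00000015839.6, GRCm38 chromosome 2, 75675513 to 75704641, minus strand) was, in CPM (estimated counts scaled to library size), at 307, 300.1 and 325 CPM in the KO libraries against 228, 237 and 261 CPM in the WT libraries. Each Tet2 KO library was above each Tet2 WT library. The log2 fold change was 0.36 ± 0.12 (SE), a fold of 1.29, with an edgeR adjusted p of 0.0686, which misses the threshold; DESeq2 gave an adjusted p of 0.0259. On the log2(TPM + 1) scale, which is not corrected for the make-up of the library, the difference was 0.19 (limma adjusted p = 0.377).

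Keap1, the adaptor that directs NRF2 to degradation (ENSMUSG00000003308.15, chromosome 9, 21229730 to 21239361, minus strand), had 52.7, 47.7 and 50.8 CPM in the KO libraries against 47.3, 39.2 and 44.9 CPM in Tet2 WT. The groups were separated by less than 1 CPM, and the log2 fold change of 0.20 ± 0.13 did not pass the test (adjusted p = 0.352 in edgeR). Sqstm1 encodes p62, an autophagy receptor that can take KEAP1 away from NRF2 and is itself an NRF2 target (ENSMUSG00000015837.15, chromosome 11, 50199366 to 50210827, minus strand). It was at 530, 472 and 500.4 CPM in the KO libraries against 575, 508 and 503 CPM in the WT libraries, with overlap. The log2 fold change was -0.08 ± 0.13, with a 95% interval from -0.36 to 0.20 (adjusted p = 0.748 in edgeR). In TPM, Sqstm1 did not overlap, at 442, 401 and 425 in the KO libraries against 541, 477 and 493 in the WT libraries, yet limma on log2(TPM + 1) did not call it (-0.25, adjusted p = 0.250).

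Glutathione synthesis begins with cystine import by xCT, the product of Slc7a11, and continues with glutamate-cysteine ligase, built from the catalytic subunit GCLC and the modifier subunit GCLM. Slc7a11 (ENSMUSG00000027737.10, chromosome 3, 49892526 to 50443614, minus strand) was scarce, at 3.77, 9.03 and 5.82 CPM in the KO libraries against 3.32, 5.05 and 5.08 CPM in Tet2 WT. The high value was Tet2 KO replicate 2, and the other libraries overlapped. The log2 fold change was 0.47 ± 0.36 (adjusted p = 0.443 in edgeR), and 0.10 without that library.

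Gclc (ENSMUSG00000032350.9, chromosome 9, 77754535 to 77794485, plus strand) stood at 65.0, 43.1 and 45.8 CPM in the KO libraries against 55.8, 44.8 and 55.8 CPM in Tet2 WT, so that the highest and the lowest of the 6 libraries were both Tet2 KO. Its log2 fold change was -0.02 ± 0.18 (adjusted p = 0.952 in edgeR), with a 95% interval from -0.42 to 0.38. Leaving out Tet2 KO replicate 1 gave -0.23 and leaving out Tet2 KO replicate 2 gave 0.09. Gclm (ENSMUSG00000028124.15, chromosome 3, 122245557 to 122270732, plus strand) showed close replicates, 35.4, 35.9 and 36.6 CPM in the KO libraries against 39.1, 39.2 and 40.5 CPM in Tet2 WT. The groups did not overlap, but the difference was small, with a log2 fold change of -0.14 ± 0.12 (adjusted p = 0.511 in edgeR). On the log2(TPM + 1) scale it was -0.33 (limma adjusted p = 0.144).

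Of Srxn1, Txnrd1 and Prdx1, only Srxn1 had an unadjusted 95% interval clear of 0. Srxn1 encodes sulfiredoxin, which repairs over-oxidised peroxiredoxins, and is one of the most responsive NRF2 and AP-1 targets; its start region holds the 3 matches described above (ENSMUSG00000032802.8, chromosome 2, 152105516 to 152111376, plus strand). It was at 41.5, 24.4 and 34.9 CPM in the KO libraries against 54.6, 43.1 and 48.4 CPM in Tet2 WT. All Tet2 KO libraries lay below all Tet2 WT libraries, with Tet2 KO replicate 2 lowest. The log2 fold change was -0.54 ± 0.20, a fold of 0.689, with a 95% interval from -0.98 to -0.10 and an edgeR adjusted p of 0.0966. It passed the threshold in 5 of the 19 alternative settings. Among them were limma on log2(TPM + 1) (-0.65, adjusted p = 0.0367) and edgeR without Tet2 KO replicate 1 (-0.71, adjusted p = 0.0459). The others were log2(TPM + 0.1), the replicate block and scaling to pan-macrophage markers (given below). The 2 TPM scales and the macrophage scaling also shifted the median gene, by -0.15, -0.16 and -0.70. The estimate was negative in all 19, from -1.28 (macrophage scaling) to -0.35.

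Txnrd1, the cytosolic thioredoxin reductase (ENSMUSG00000020250.10, chromosome 10, 82833951 to 82897712, plus strand), had 64.5, 84.8 and 60.8 CPM in the KO libraries against 67.8, 65.6 and 70.2 CPM in Tet2 WT. The Tet2 KO libraries spanned the Tet2 WT range, and the log2 fold change was 0.05 ± 0.15 (adjusted p = 0.879 in edgeR). Its sign was not stable, at -0.11 without Tet2 KO replicate 2 and -0.05 on the log2(TPM + 1) scale. Prdx1, the peroxiredoxin that reduces hydrogen peroxide in the cytosol (ENSMUSG00000028691.12, chromosome 4, 116685544 to 116700822, plus strand), was the most abundant gene of the group, at 801, 572 and 656 CPM in the KO libraries against 570.0, 599 and 621 CPM in Tet2 WT. The groups overlapped, with Tet2 KO replicate 1 highest, and the log2 fold change was 0.18 ± 0.15 (adjusted p = 0.493 in edgeR). It was 0.04 without that library and 0.29 without Tet2 KO replicate 2.

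Nqo1, the quinone reductase that is often used as a reporter of NRF2 activity (ENSMUSG00000003849.8, chromosome 8, 107388225 to 107403206, minus strand), was scarce. It had 42, 96 and 61 estimated counts in the KO libraries against 264, 110 and 78 in the WT libraries, which is 1.21, 1.87 and 1.17 CPM against 5.04, 1.98 and 1.44 CPM. The Tet2 WT mean rested on replicate 1. The log2 fold change of -0.99 ± 0.51 (adjusted p = 0.243 in edgeR) became -0.25 without that library (adjusted p = 0.838 in edgeR).

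**Figure D2:**
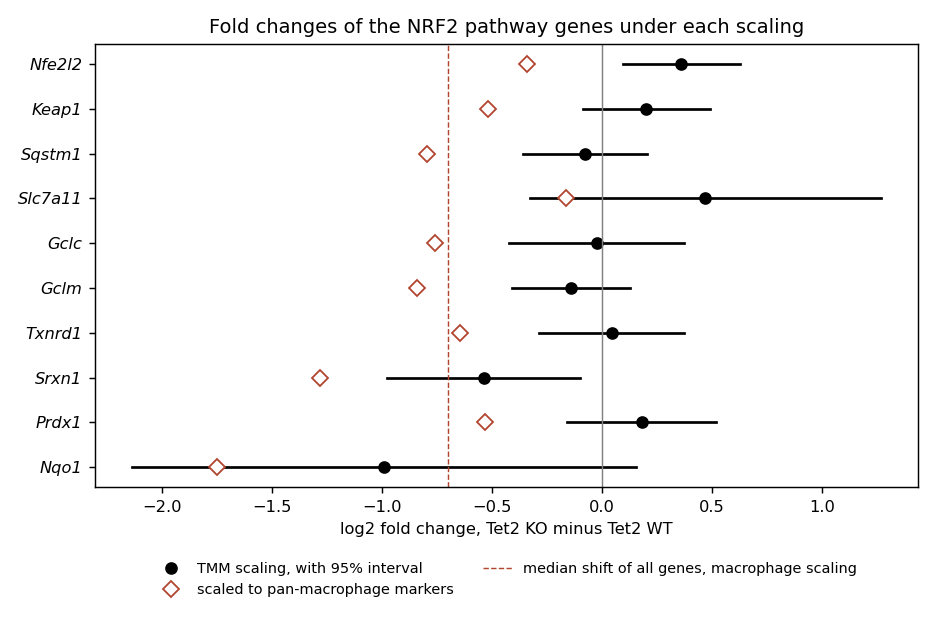
Log2 fold change of each gene, Tet2 KO minus Tet2 WT, with TMM scaling (filled circles, lines for the unadjusted 95% interval) and with libraries scaled to the pan-macrophage markers (open diamonds). The dashed line marks the median shift of all genes under the second scaling, -0.70, and the open diamonds lie on both sides of it.

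The genotypes also differed in the markers of macrophages and of other cells. Total estimated counts ran from 37349505 to 55771087. Csf1r, a defining macrophage gene, lay between 1482 and 3528 CPM over the 6 libraries. The 17 pan-macrophage markers summed to 38239 ± 3597 CPM (SD, n = 3) in the libraries labelled Tet2 KO against 23781 ± 3849 CPM (SD, n = 3) in those labelled Tet2 WT, and 13 of 17 were called higher. The two-sided exact permutation p was 0.1, the lowest value possible with 3 libraries a group. The 18 fibroblast markers summed to 2396 to 4506 CPM in the KO libraries against 16035 to 29624 CPM in the WT libraries, a ratio of 0.155 (two-sided p = 0.1 by exact permutation); 16 of 18 were called lower, and none of them was at 0 in all libraries. In Tet2 WT replicates 1 and 3 the fibroblast markers summed above the macrophage markers, at 29624 against 20131 CPM and 25174 against 23409 CPM. In Tet2 WT replicate 2 they summed below them, at 16035 against 27803 CPM. Cardiomyocyte markers averaged 119 and 118 CPM. The other lists summed to at most 246 CPM in a library. Endothelial markers had a ratio of 0.634, which rested on Tek (15.9 against 95.8 CPM); the other 9 had a ratio of 1.16. The ratio of 1.77 for T, B and NK cell markers rested on Cd79b (29.7 against 13.2 CPM), and the other 9 had a ratio of 0.989. Pericyte and smooth muscle markers had a ratio of 0.632, or 0.721 without Abcc9, their only called gene, and neutrophil markers 0.909. In bulk RNA, fewer cells of a type and less RNA per cell cannot be told apart, and the part of these markers in the values of the 10 genes was not tested. Tet2 itself was at 81.2, 82.6 and 78.2 CPM in the KO libraries against 57.5, 76.1 and 60.8 CPM in Tet2 WT (log2 fold change 0.32 ± 0.14, edgeR adjusted p = 0.159); as the deleted part is not given, this does not check the labels.

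Setting the genes against the macrophage markers of the same library moved all of them down. With libraries scaled to the summed pan-macrophage markers, the median gene moved by -0.70 on the log2 scale, and 41.3% of all tested genes were called lower. In that fit 7 of the 10 genes were called lower: Sqstm1 (-0.79 ± 0.17), Gclc (-0.76 ± 0.23), Gclm (-0.84 ± 0.20), Txnrd1 (-0.64 ± 0.23), Srxn1 (-1.28 ± 0.24), Prdx1 (-0.53 ± 0.15) and Nqo1 (-1.75 ± 0.59). Nfe2l2 was at -0.34 ± 0.17 (adjusted p = 0.110 in edgeR) and Keap1 at -0.52 ± 0.22 (adjusted p = 0.0674 in edgeR), and neither was called; Slc7a11, at -0.16 ± 0.40, was not called either. Relative to the median shift, Nfe2l2 lay 0.36 above and Srxn1 -0.58 away, close to their values under TMM. The sign under this scaling was thus opposite to that under TMM for Nfe2l2, Keap1, Slc7a11, Txnrd1 and Prdx1.

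Some genes overlap others in the genome, and whether reads were counted by strand is not stated: Sqstm1 with Mrnip on the opposite strand (109 estimated counts per library on average), Gclm with the pseudogene Gm6061 (32.9) and Txnrd1 with Eid3 (12.2), both on the same strand. Within a genotype the libraries did not rank the same way for each gene. Among the Tet2 KO libraries, replicate 1 was highest for 5 genes (Keap1, Gclc, Srxn1, Prdx1 and Sqstm1), and replicate 2 was lowest for those 5 and for Nfe2l2 but highest for Nqo1, Txnrd1 and Slc7a11. Among the Tet2 WT libraries, replicate 3 was highest for 6 genes and replicate 2 for 0. Tet2 KO replicate 2 also had the lowest sum of fibroblast markers, 2396 CPM, and the lowest sum of macrophage markers among the Tet2 KO libraries, 34537 CPM; whether these move with the ranks was not tested.

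The transcripts behind the gene totals were mostly coding ones, except for Slc7a11. In TPM, transcripts annotated as protein-coding held 80.7% to 98.6% of Nfe2l2, Keap1, Gclc, Gclm, Srxn1, Prdx1 and Sqstm1 in each library, and 65.5% to 83.0% of Txnrd1. For Slc7a11 they held 1.08% to 26.6%. The rest lay mainly in 2 retained-intron transcripts at the 5′ end of the gene. The single-exon Slc7a11-204 (ENSMUST00000193838.1, chromosome 3, 50440929 to 50443605) received 20.6, 206 and 142 estimated counts in the KO libraries against 37.7, 33.8 and 32.7 in Tet2 WT. It was high in Tet2 KO replicates 2 and 3 and lowest of all libraries in Tet2 KO replicate 1. The full-length coding transcript Slc7a11-201, with 12 exons, received 15.5, 88.0 and 3.45 counts in the KO libraries against 25.5, 61.0 and 104 in Tet2 WT. With protein-coding transcripts alone, the log2 fold change of Slc7a11 turned from 0.47 to -0.48 (adjusted p = 0.787 in edgeR). The gene total of Slc7a11 in these libraries was thus made up mostly of transcripts not annotated as coding, by TPM.

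**Figure D3:**
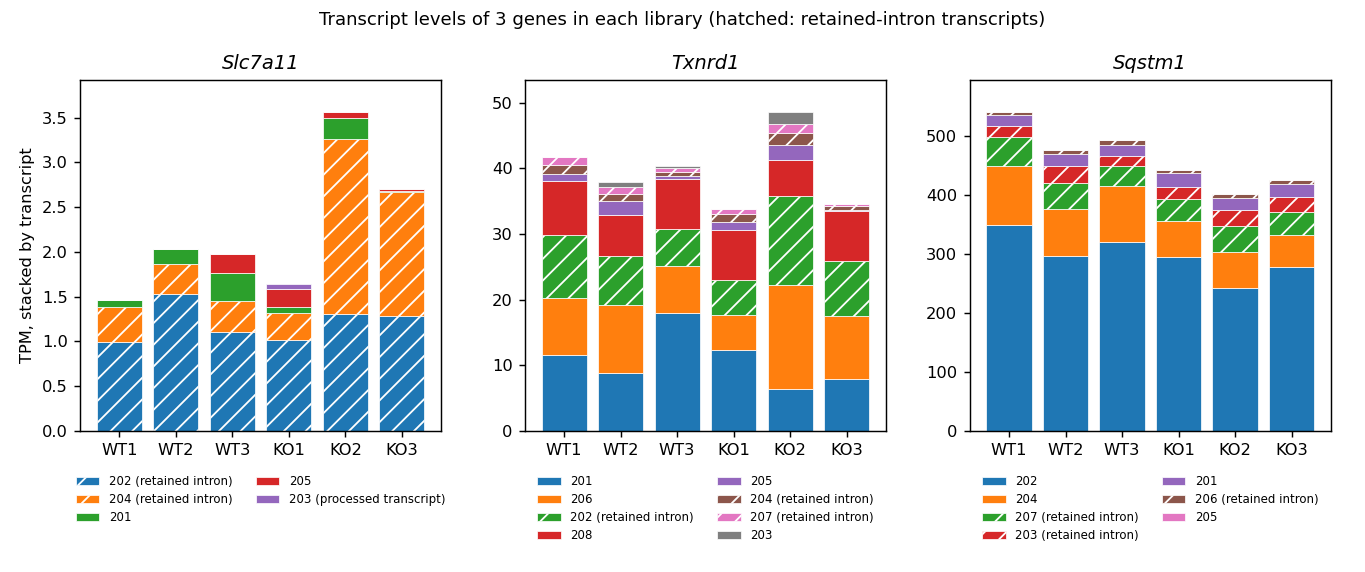
TPM of each annotated transcript of Slc7a11, Txnrd1 and Sqstm1, stacked, in the 3 Tet2 WT and 3 Tet2 KO libraries; hatched segments are retained-intron transcripts. Most of Slc7a11 is hatched in each library, and Slc7a11-204 is large in Tet2 KO replicates 2 and 3 only.

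Of the 48 transcripts listed for the 10 genes, 9 did not overlap between the genotypes in TPM, and each of these was lower in Tet2 KO. Of all 87482 transcripts of tested genes, 16.3% did not overlap, 4.59% higher and 11.7% lower in Tet2 KO. TPM lowered the median gene as well, by -0.15 on the log2(TPM + 1) scale. They included Srxn1-201, the protein-coding Srxn1 transcript, with 1425, 1236 and 1793 estimated counts in the KO libraries against 2849, 2357 and 2593 in the WT libraries. Sqstm1-204, a 3-exon coding model, made up 13.7%, 15.5% and 12.7% of the gene's TPM in the KO libraries against 18.5%, 16.7% and 19.2% in the WT libraries; the groups did not overlap, and the share was not tested. The 8-exon Sqstm1-201 went the other way, with 5.43%, 5.01% and 5.03% in the KO libraries against 3.56%, 4.44% and 3.63% in the WT libraries. Shares did not overlap for 1 of the 48 transcripts in the higher and 2 in the lower direction, beside 4.32% and 5.71% of all transcripts. Txnrd1 has 3 start windows, and the 4 transcripts that start at the one holding TGACAAAGC made up 55.9% to 74.4% of its TPM in the KO libraries against 61.6% to 77.9% in Tet2 WT. Txnrd1-206, which starts at another, took 15.9%, 32.7% and 27.8% in the KO libraries against 20.6%, 27.2% and 17.8% in Tet2 WT, so the use of starts overlapped. These shares depend on how kallisto apportions reads that fit several transcripts.

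Further pathway genes were taken from 6 lists that were chosen with earlier results of these data known, so their share of calls is description only. Of 94 further genes in 6 lists, 91 were tested, 10 rose and 18 fell in Tet2 KO, against 6.11% and 10.1% of all tested genes called in those directions. The share called differed between the lists, from 0% for thioredoxin and peroxiredoxin to 52.2% for the other NRF2 targets. The rises were small, and their number changed with the library left out. Leaving out Tet2 WT replicate 1 gave 0 higher calls, Tet2 KO replicate 3 gave 2, Tet2 WT replicate 3 gave 1 and Tet2 KO replicate 1 gave 4. Leaving out Tet2 KO replicate 2 gave 15. The higher calls over all genes, 1001 in the full fit, moved too: they were 350, 428, 608, 596 and 1402 in these fits, in that order. With 1 library left out, Slc3a2 stayed called in 5 of 6 fits and Glrx in 4, while Tkt, G6pdx and Cat each stayed in 1. The falls were larger. Scaled to the macrophage markers, 0 of the 91 were called higher and 53 lower. In that fit 19 of all 16386 tested genes were called higher and 6769 (41.3%) lower.

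**Figure D4:**
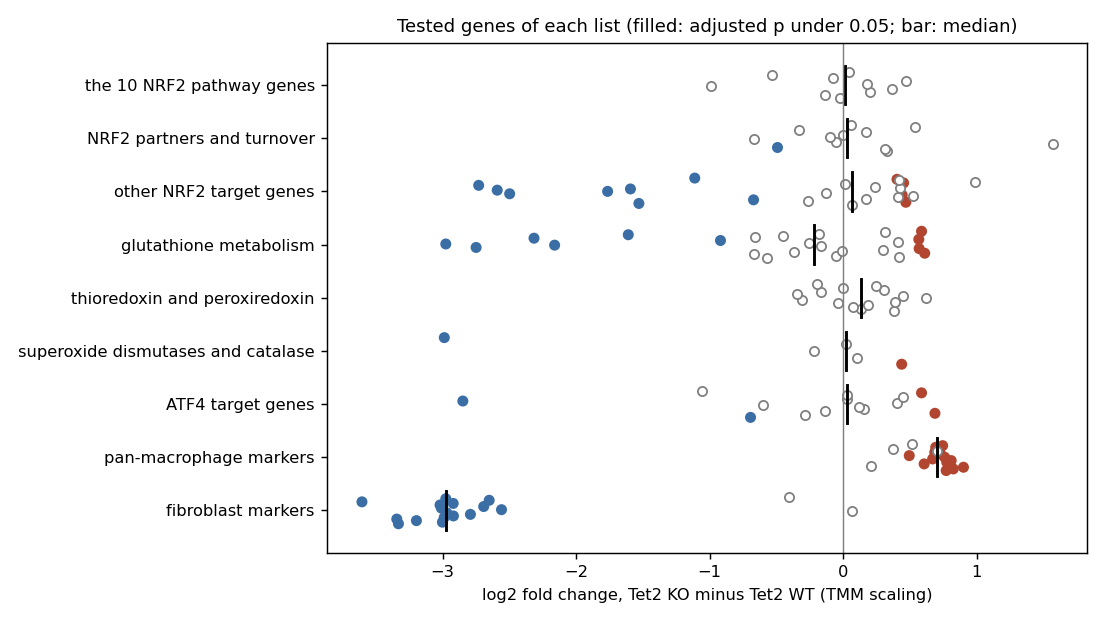
Log2 fold change (TMM scaling) of each tested gene in the 10 NRF2 pathway genes, the 6 further lists and 2 marker lists; filled points passed an edgeR adjusted p under 0.05 and bars are medians. The 10 genes are all open points, and the filled points of the glutathione and NRF2 target lists fall into a small group above 0 and a group between -0.67 and -2.98.

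Among 12 genes for NRF2 partners and turnover 1 was called (median 0.03), against 16.2% of all genes. It was Btrc, lower in Tet2 KO, which encodes a substrate receptor that marks NRF2 for degradation, at 25.5 ± 3.04 CPM in the KO libraries against 35.9 ± 0.624 CPM in Tet2 WT (log2 fold change -0.49 ± 0.14, edgeR adjusted p = 0.0400); the call was lost in each fit that left out 1 library. Mafg, a small MAF partner, was at -0.10 ± 0.14 and Bach1, a repressor at the same elements, at 0.33 ± 0.18. Cul3, the scaffold of the KEAP1 ligase, named after its values were seen, was at 118, 16.8 and 38.6 CPM in the KO libraries against 19.9, 19.1 and 19.3 CPM in Tet2 WT. One Tet2 KO library was thus far above, 1 above and 1 below all Tet2 WT libraries, and the log2 fold change of 1.57 ± 0.64 did not pass (adjusted p = 0.163 in edgeR). The coding transcript Cul3-202 received 2450, 415 and 1307 estimated counts in the KO libraries and 556, 596 and 405 in the WT libraries. Without Tet2 KO replicate 1 the log2 fold change was 0.51 (adjusted p = 0.368 in edgeR), and without replicate 2 it was 2.01 (adjusted p = 0.0115 in edgeR).

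Of 23 tested genes among the other NRF2 targets, 4 rose and 8 fell (median 0.06), against 6.11% and 10.1% of all tested genes. The rises were Pgd and G6pdx, dehydrogenases that make NADPH, Tkt, the transketolase, and Blvrb. Pgd rose by 0.45 ± 0.11, G6pdx by 0.44 ± 0.13 and Tkt by 0.40 ± 0.12, and Blvrb, a biliverdin reductase, by 0.47 ± 0.13 (edgeR adjusted p = 0.0244, 0.0462, 0.0430 and 0.0403). G6pdx was at 234, 189 and 233 CPM in the KO libraries against 159, 170.5 and 154 CPM in Tet2 WT, with no overlap. When scaled to the macrophage markers all 4 had negative values, from -0.30 to -0.21, and none was called. The falls included the glutathione S-transferases Gstm1 (-1.76 ± 0.22), Gstm2 (-2.59 ± 0.22) and Gstp1 (-1.59 ± 0.21) and malic enzyme, Me1 (-2.73 ± 0.29), another source of NADPH. Gstm1 was at 241, 155 and 214 CPM in the KO libraries against 837, 515 and 719 CPM in the WT libraries. In both genotypes its lowest library was replicate 2, which was also the lowest in fibroblast markers. In macrophage markers replicate 2 was the lowest Tet2 KO library (34537 CPM) and the highest Tet2 WT library (27803 CPM). Whether Gstm1 moves with either set of markers was not tested. Hmox1, the haem oxygenase and a classic NRF2 and BACH1 target, overlapped at 319, 593 and 487 CPM against 298, 336 and 407 CPM (0.43 ± 0.22, edgeR adjusted p = 0.246).

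In glutathione metabolism 4 of 24 tested genes rose and 6 fell (median -0.22), against 6.11% and 10.1% of all tested genes. Slc3a2, the heavy chain that pairs with xCT, rose from 156 to 234 CPM (0.59 ± 0.13, edgeR adjusted p = 0.0141), Gpx1, the cytosolic glutathione peroxidase, from 910.1 ± 117 to 1349 ± 198 CPM (0.57 ± 0.16, edgeR adjusted p = 0.0403), the glutaredoxin Glrx by 0.61 ± 0.14 and Gsto1 by 0.57 ± 0.17. Scaled to the macrophage markers, these 4 had values between -0.13 and -0.10 and were not called. The falls were Gpx8 (-2.98 ± 0.36), the secreted peroxidase Gpx3 (-2.75 ± 0.35), Gstt1 (-2.32 ± 0.26), Mgst1 (-1.61 ± 0.23) and 2 others. Gpx3 was at 230, 96.9 and 191 CPM in the KO libraries against 1504, 793 and 1183 CPM in the WT libraries. The enzymes that make or recycle glutathione were not called: Gss, glutathione synthetase, was at 0.41 ± 0.20 and Gsr, glutathione reductase, at -0.26 ± 0.21. Gpx4, which protects membranes from lipid peroxides, was at -0.17 ± 0.12.

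In the thioredoxin and peroxiredoxin list (median 0.13) 0 of 15 genes were called by edgeR, DESeq2 or limma voom. These called 16.2%, 21.1% and 17.4% of all tested genes. An unadjusted edgeR p under 0.05 was found for 4 of the 15, beside 28.9% of all tested genes. Txn1 was at -0.17 ± 0.13, Txnip, the thioredoxin inhibitor, at -0.01 ± 0.16, Prdx2 at 0.07 ± 0.12 and Prdx6 at -0.31 ± 0.13. In the list of superoxide dismutases and catalase 1 of 5 tested genes rose and 1 fell, against 6.11% and 10.1% of all tested genes. Cat rose by 0.44 ± 0.13 (adjusted p = 0.0456 in edgeR) and Sod3, the extracellular dismutase, fell by 2.99 on the log2 scale. Sod1 and Sod2 were at -0.22 ± 0.15 and 0.02 ± 0.14. The Cat call was lost in 5 of 6 fits with a library left out, and its value was -0.26 when scaled to the macrophage markers. Of 14 tested ATF4 targets, a list added because ATF4 also drives Slc7a11, 2 rose and 2 fell, against the same shares of all tested genes. The rises were Atf3 (0.69 ± 0.18) and Slc3a2, and the falls were Phgdh (-2.85 ± 0.39) and Aldh18a1 (-0.69 ± 0.19). The median of the list was 0.03, and Atf4 itself was at -0.14 ± 0.13.

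The falls stood beside lower fibroblast markers, whose median log2 fold change was -2.97. The 18 falls ran from -2.99 (Sod3) to -0.49 (Btrc). Gpx3, Gpx8, Sod3, Me1, Gstm2, Gsta3, Gstt1 and Phgdh were at -2.99 to -2.32. Farther from the fibroblast median were Gpx7 (-2.16), Gstm1, Mgst1 and Gstp1 (-1.76 to -1.59) and Akr1b8 (-1.53). The farthest were Ugdh (-1.11), Gstk1 (-0.92), Aldh18a1 (-0.69), Cbr3 (-0.67) and Btrc. The part of fibroblast RNA in these values was not tested. The 10 genes themselves ranged from -0.99 to 0.47.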

How the data were processed

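Per the submitters' processing notes, the tools were Trim Galore 0.6.4 and kallisto 0.44.0 with the mouse build GRCm38; no annotation release is named. The authors deposited kallisto's estimated counts per transcript, not normalized, per the file headers. The authors also deposited TPM, which kallisto scales within each library, per the file headers. Of 118783 transcripts, 116622 matched GENCODE M21; the 2161 others held at most 0.671% of a library's counts and were left out. Estimated counts were summed per gene, rounded, filtered with filterByExpr (16386 genes kept), normalized by TMM and compared by the robust quasi-likelihood test of edgeR 4.0.16 (R 4.3.3), Tet2 KO against Tet2 WT, with Benjamini-Hochberg adjustment over all tested genes. CPM are TMM-normalized; standard errors come from the fold change and F statistic. No 2 libraries of the same genotype agreed within sampling noise (chi-square per gene at least 70.5). The members, lists and alternatives were chosen with earlier results of these data known. Named were all members, up to 4 called genes per list and direction, and a set of other pathway genes; Cul3 was added after its values were seen. Alternatives were other scalings, filters, DESeq2 1.42.0, limma 3.58.1 (voom, and log2(TPM + 1) or log2(TPM + 0.1) for genes with at least 1 TPM in 3 libraries), length-scaled or coding-only counts, libraries left out and a replicate block. The depth and 3 libraries per genotype set the precision.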

Additional observations from a re-analysis of the deposited data

How the results depend on the processing

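Of the 10 NRF2 pathway genes, 0 were called higher and 0 lower with TMM, and 19 alternatives were tried. DESeq2 called 1 higher (Nfe2l2), beside 21.1% of all tested genes in either direction. Scaling to the pan-macrophage markers called 7 lower, and limma on log2(TPM + 1) and on log2(TPM + 0.1) called 1 lower each (Srxn1). With 1 library left out, 0 to 1 were called lower, the 1 being Srxn1 without Tet2 KO replicate 1. The numbers in the labels gave same-numbered libraries correlations of 0.0602, 0.129 and 0.0422 in their deviations from the genotype means. Each library correlated best with the one of its own number, and the other pairs ran from -0.0846 to 0.0238. Whether the numbers mark pairs or batches is not stated and was not tested. With the replicate block 1 of the 10 was called lower, Srxn1 (-0.56, edgeR adjusted p = 0.0397), 3 of the further pathway genes were called higher, and 789 of all genes higher and 1558 lower.

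Of the further pathway genes, 10 were called higher and 18 lower. The higher count was 0 when scaled to the macrophage markers, 1 with either TPM scale, 5 with protein-coding transcripts only and 0 without Tet2 KO replicate 1 and Tet2 WT replicate 1; with 1 library left out it ran from 0 to 15. The lower count was 53 when scaled to the macrophage markers. Over all genes, 1001 were higher and 1652 lower, so 62.3% of calls were lower. Macrophage scaling gave 19 and 6769, log2(TPM + 1) put 459 higher and log2(TPM + 0.1) 441 (79.3% lower in both), and without Tet2 KO replicate 1 and Tet2 WT replicate 1 there were 177 and 1011. With 1 library left out, the higher calls ran from 350 to 1402 and the lower from 1032 to 1739. Under the macrophage scaling the sign turned for Txnrd1 (-0.64), Prdx1 (-0.53), Gpx1 (-0.13), Slc3a2 (-0.12), Prdx2 (-0.63), Sod2 (-0.67), Cat (-0.26), Pgd (-0.24), Blvrb (-0.21), Tkt (-0.30), G6pdx (-0.27), Glrx (-0.10) and Gsto1 (-0.12), which follows from its shift of all genes by -0.70; it also turned for Nfe2l2, Keap1, Slc7a11, Hmox1, Bach1 and Gss, called in neither fit. The cause of the other changes was not tested. Nqo1 and Slc7a11 had under 10 CPM in each library, and 1 library moved each: Nqo1 was at -0.25 without Tet2 WT replicate 1 and Slc7a11 at 0.10 without Tet2 KO replicate 2.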
